A study of Rattus norvegicus with 90 samples.

Results

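Microglia are the resident macrophages of the brain, and mesenchymal stromal cells from human umbilical cord (HuMSC) were given into the nose of rat pups to learn what their dose does to the transcriptome of these cells after early-life inflammation. The 9 libraries described here were chosen by their labels: they are all the libraries of HuMSC-treated pups in the intranasal experiment collected at postnatal day 12 (P12), of 90 libraries in the series. The 2 higher doses, 50 M and 125 M cells per kg (HuMSC50 and HuMSC125, 3 libraries each), were set against the lowest dose, 20 M cells per kg (HuMSC20, 3 libraries), and their mean difference from HuMSC20 is called the dose step. Every pup was a male Wistar Han rat that had received IL-1β intraperitoneally at 20 µg per kg from P1 to P5 and HuMSC intranasally at P10, so that no pup without IL-1β or without HuMSC enters the comparison. Brains without olfactory bulbs and cerebellum were taken 48 h after delivery, enzymatically dissociated, and cells carrying CD11b/c were collected on magnetic beads. Polyadenylated RNA was sequenced with a stranded protocol in 1 run for all 9 libraries. The labels do not say whether replicates are separate animals, so the p-values below measure the spread between these libraries, which may be technical.

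Many of the genes that differed between doses belong to 2 programmes. Immediate early genes (Fos, Jun, Egr and Nr4a family transcription factors and their feedback regulators) are transcribed within minutes of a stimulus without new protein synthesis, and in microglia they are also switched on by the enzymatic dissociation that frees the cells from tissue. NF-κB is a transcription factor held in the cytoplasm by inhibitor proteins of the IκB family; when released it drives cytokines such as IL-1β, chemokines, and its own inhibitors.

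Total counts were 11.8 to 15.8 M in the 6 higher-dose libraries and 11.9 to 13.7 M in the 3 HuMSC20 libraries. Log2 values of replicates correlated at 0.97 to 0.987. Libraries of different doses lay within that range, HuMSC20 with the higher doses at 0.976 to 0.985 and HuMSC50 with HuMSC125 at 0.975 to 0.986. Markers of microglia were abundant: Csf1r, the receptor for the survival factor CSF1, stood at 7212 to 8718 CPM (read counts scaled to library size) in higher-dose libraries and 6561 to 8467 CPM in HuMSC20 libraries, and P2ry12, a purine receptor of homeostatic microglia, at 1420 to 1837 CPM and 1463 to 1897 CPM. One library stands apart: HuMSC125 replicate 2 had a mean of 3.73 log2 CPM over 20 tested neuron markers, where the other 5 higher-dose libraries had 1.55 to 1.97 and the HuMSC20 libraries 1.48 to 1.84. Counts of genes, and the list values that moved most, are also given without it.

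The promoters of 4 genes that fell at the higher doses are printed here because they hold, or lack, sequence elements known from the 2 programmes. Each is the stretch of 250 bases before the annotated start, 5′ to 3′ on the gene's own strand, from RefSeq on GRCr8. Capitals mark matches to the κB site bound by NF-κB, the CArG box bound by serum response factor, AP-1 (TGANTCA) or the E-box (CACGTG), searched on both strands. The Fosl2 stretch, shown because Fosl2 passed the test at each higher dose, has no match. In Egr2, a zinc-finger transcription factor, the capitals are a CArG box at positions -83 to -74 from the start. In Nfkbia, which encodes the inhibitor IκBα, they are a κB site at positions -31 to -22. In Tnfaip3, which encodes the NF-κB feedback inhibitor A20, they are, from left to right, an AP-1 match, a κB site, an E-box and 2 more κB sites. None of the matches shown overlap each other.
Fosl2 (chr6:30039270-30039519, minus strand): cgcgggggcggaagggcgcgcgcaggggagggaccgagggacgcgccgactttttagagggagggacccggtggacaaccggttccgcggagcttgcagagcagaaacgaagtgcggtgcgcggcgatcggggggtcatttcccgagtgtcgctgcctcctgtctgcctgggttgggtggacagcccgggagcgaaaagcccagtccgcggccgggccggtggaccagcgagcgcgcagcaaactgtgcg
Egr2 (chr20:21054442-21054691, minus strand): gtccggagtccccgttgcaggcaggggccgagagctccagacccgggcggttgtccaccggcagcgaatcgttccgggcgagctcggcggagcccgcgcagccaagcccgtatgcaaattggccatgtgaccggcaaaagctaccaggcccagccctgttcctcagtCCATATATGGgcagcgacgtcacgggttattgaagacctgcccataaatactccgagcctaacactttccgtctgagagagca
Nfkbia (chr6:78597073-78597322, minus strand): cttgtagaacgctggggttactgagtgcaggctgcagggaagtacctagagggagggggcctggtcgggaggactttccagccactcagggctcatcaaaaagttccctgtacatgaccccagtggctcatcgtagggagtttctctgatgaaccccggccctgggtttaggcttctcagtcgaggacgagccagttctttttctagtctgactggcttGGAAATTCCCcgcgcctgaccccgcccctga
Tnfaip3 (chr1:15543980-15544229, minus strand): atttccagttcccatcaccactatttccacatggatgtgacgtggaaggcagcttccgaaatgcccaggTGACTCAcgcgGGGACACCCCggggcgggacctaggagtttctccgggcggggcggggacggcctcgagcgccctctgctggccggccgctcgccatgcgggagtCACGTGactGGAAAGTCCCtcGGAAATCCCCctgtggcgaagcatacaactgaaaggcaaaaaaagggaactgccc

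At the 2 higher doses 87 genes fell and 4 rose relative to HuMSC20 (edgeR quasi-likelihood test, Benjamini-Hochberg adjusted p under 0.05, 13685 genes tested). These 91 are 0.665% of the genes tested, the lower ones 0.636% and the higher ones 0.0292%. The 87 lower genes had a median log2 fold change of -1.08, from -8.09 to -0.42, against a median of 0.01 over all genes tested. For 85 of the 87 every higher-dose library lay below every HuMSC20 library, a pattern found in 2.75% of all genes tested. The 87 were chosen by a test on these same libraries, which favours such separation, so this is a description and no further evidence. The same holds where the groups of a named gene are called separate below. As coloured by library in the map of genes passing the test, HuMSC20 replicate 2 was the highest of the 9 libraries for 45 of the 87 lower genes, replicate 3 for 32 and replicate 1 for 10. The count changed with the library left out: 18 genes passed without HuMSC20 replicate 2 and 17 without HuMSC20 replicate 3. It was 41 without HuMSC50 replicate 2, 35 without HuMSC50 replicate 3, and 145 without HuMSC125 replicate 2. Of the 91, 60 still passed without HuMSC20 replicate 1 and 68 without HuMSC50 replicate 1. Without HuMSC125 replicate 1 or 3, 66 and 59 of them did. The sign of all 91 was the same in each of the 9 fits that left out 1 library. For 88 of the 91 the groups did not overlap, so these fits could hardly have changed their sign.

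**Figure D1:**
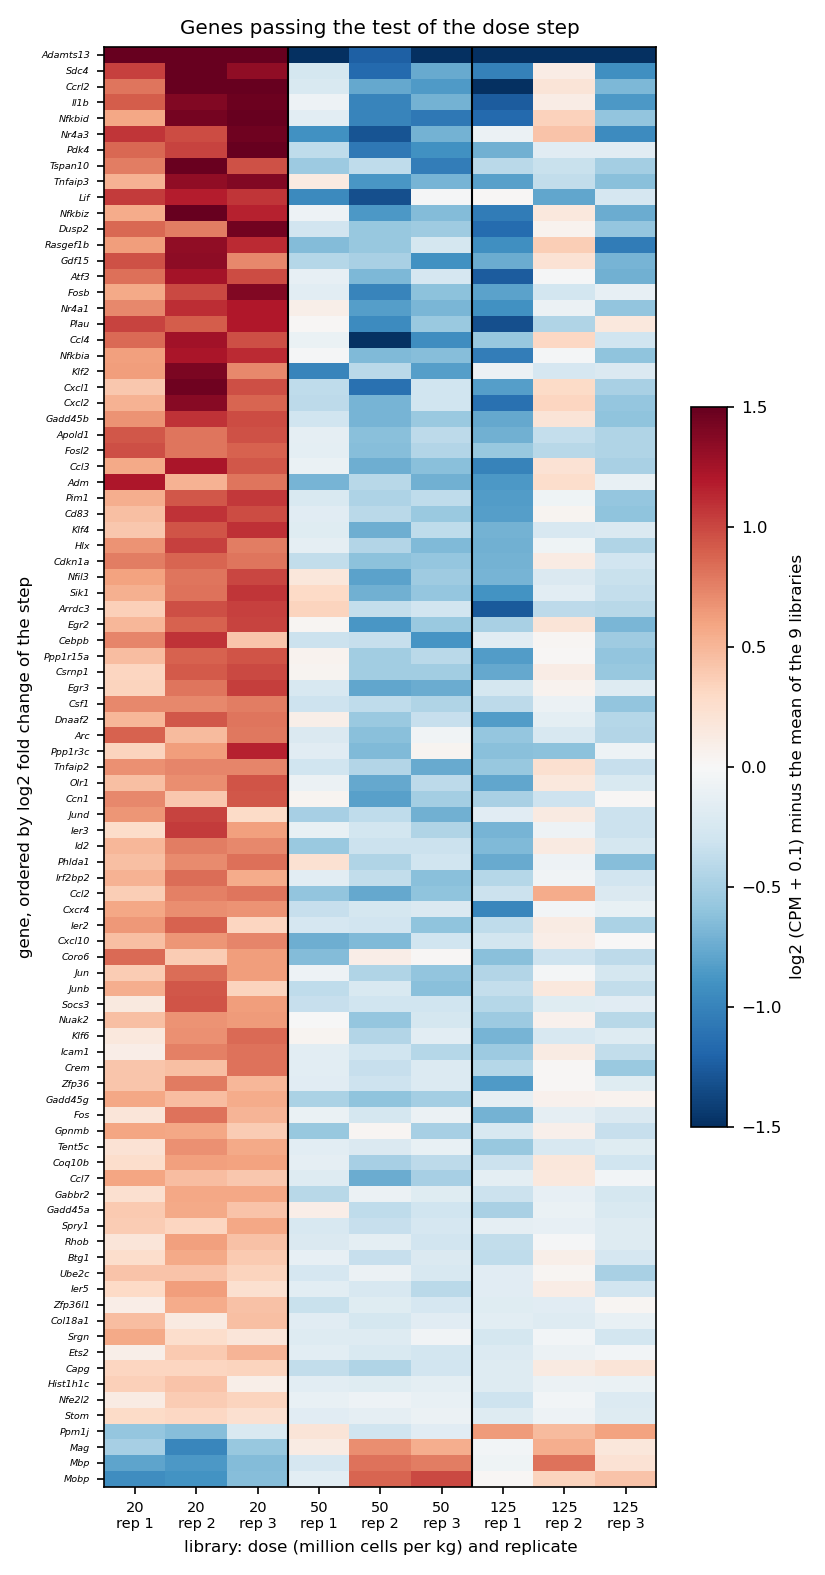
Colour shows log2 (CPM + 0.1) of each gene minus its mean over the 9 libraries, for the 91 genes passing the test, ordered from the lowest to the highest log2 fold change, with libraries in columns by dose. The 3 HuMSC20 columns are red for the 87 lower genes and blue for the 4 higher ones, and HuMSC125 replicate 2 and HuMSC50 replicate 1 are the palest of the higher-dose columns.

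Apold1, Csf1 and Fosl2 passed the test in the dose step and also at each higher dose alone. Apold1, first described as an early response gene of the vascular endothelium (chromosome 4, 168752133 to 168755023 in the deposited table's coordinates), had 39.8, 49.2 and 59.9 CPM as the lowest, median and highest higher-dose library, against 126, 115 and 127 CPM in HuMSC20. Every higher-dose library lay well below the lowest HuMSC20 library, and the log2 fold change was -1.33 ± 0.11 (SE; edgeR adjusted p = 0.000986). Csf1, the ligand of Csf1r (chromosome 2, 210522375 to 210550560), had 24.3, 28.1 and 34.4 CPM as the lowest, median and highest of the higher-dose libraries, against 60.7, 60.8 and 62.4 CPM in HuMSC20, a log2 fold change of -1.10 ± 0.10 (edgeR adjusted p = 0.00116). The HuMSC20 libraries nearly coincided for Csf1, and the groups did not overlap. Fosl2, a Fos-family subunit of the AP-1 factor (chromosome 6, 25598936 to 25616995), had 4.79, 5.52 and 6.81 CPM at the higher doses, again lowest, median and highest, against 14.9, 13.2 and 14.0 CPM in HuMSC20, a log2 fold change of -1.33 ± 0.14 (edgeR adjusted p = 0.00344). Together with these 3, 9 others (Pdk4, Gadd45g, Cdkn1a, Pim1, Hlx, Klf2, Irf2bp2, Sdc4 and Adamts13) passed in every one of the 9 fits that left out a library. Of these 12, Adamts13 was not called by limma-voom (adjusted p = 0.0782), nor among the 91 was Mobp (0.0796).

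**Figure D2:**
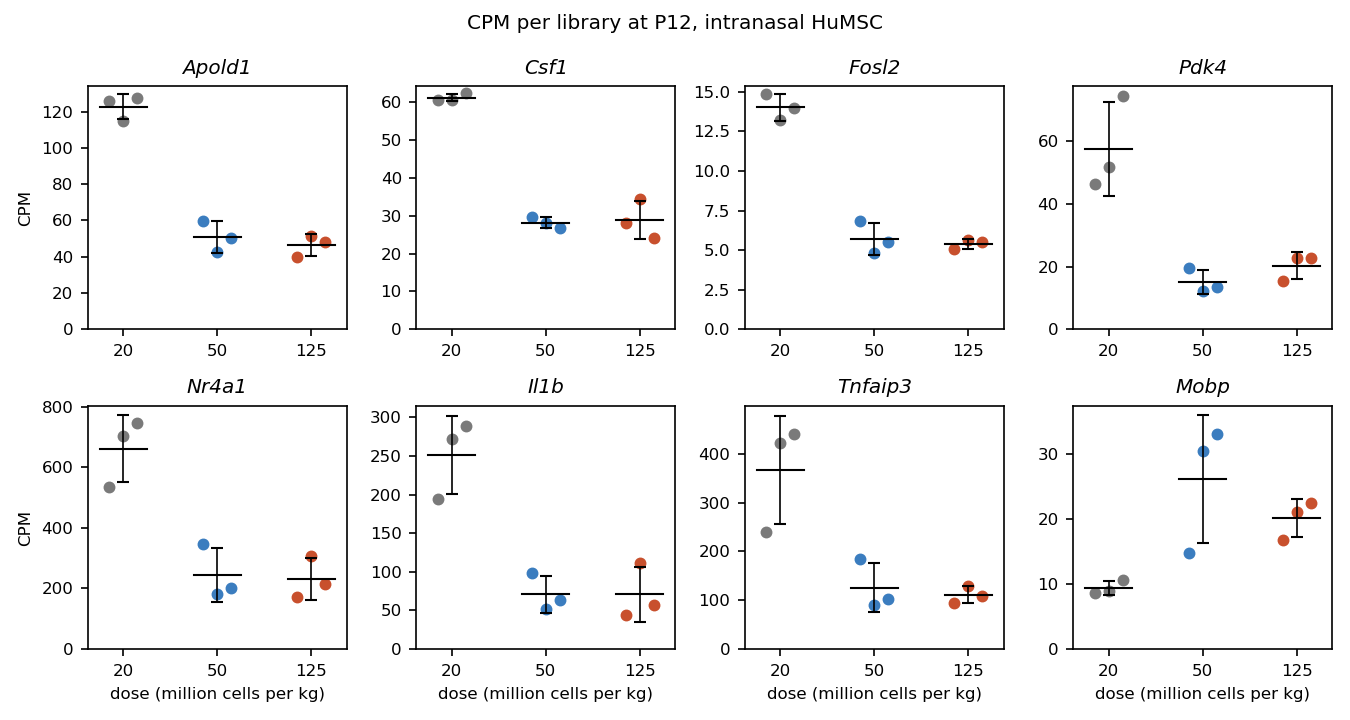
CPM of 8 genes in each library by dose (points), with the group mean (long line) and SD (bars), n = 3 libraries per dose. Apold1, Csf1, Fosl2, Pdk4, Nr4a1, Il1b and Tnfaip3 sit lower at 50 and 125 M cells per kg than at 20, and Mobp sits higher.

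HuMSC50 alone already differed from HuMSC20, and no gene passed the test between 50 and 125 M cells per kg. Against HuMSC20, HuMSC50 had 35 lower genes (0.256% of genes tested) and 2 higher ones (0.0146%), 37 in all (0.27%), and all 37 were among the 91 of the dose step. HuMSC125 had 3 lower genes (Apold1, Csf1 and Fosl2; 0.0219%) and none higher with edgeR, 145 genes with DESeq2 and 63 with limma-voom. Those 2 contrasts share the HuMSC20 libraries, and the difference in their counts is not itself a test: HuMSC125 directly against HuMSC50 gave 0 genes with edgeR (636 genes, or 4.65%, at unadjusted p under 0.05, smallest adjusted p 0.973), 0 with limma-voom and 3 with DESeq2. Of the 87 lower genes, 52 had a higher mean in HuMSC125 than in HuMSC50, where 49.3% of all genes tested had a lower one. The median log2 difference was 0.06 for the 87 and 0.003 over all genes. One of the 52 is Pdk4, a kinase that shuts pyruvate dehydrogenase. Pdk4 averaged 57.5 ± 14.9 CPM in HuMSC20, 15.1 ± 3.97 in HuMSC50 and 20.3 ± 4.25 in HuMSC125 (SD, n = 3 each). Another is Gadd45g, a growth arrest gene and the nearest of the 91 to passing between the higher doses. It had 30.6 ± 1.31, 14.6 ± 0.652 and 21.0 ± 1.55 CPM in that order of dose. Apold1 and Fosl2 were not among the 52, with log2 differences of -0.13 and -0.08 for HuMSC125 minus HuMSC50. The count at 125 moved most with 1 library: without HuMSC125 replicate 2 the genes passing numbered 69 in HuMSC125 against HuMSC20 and 75 in HuMSC50 against HuMSC20, whereas without HuMSC50 replicate 3 none passed in the second of these (5 without HuMSC50 replicate 2, 24 without HuMSC50 replicate 1, 6 and 9 with HuMSC20 replicate 2 or 3 left out). In HuMSC125 against HuMSC20, leaving out HuMSC50 replicate 1 or HuMSC20 replicate 1 gave 15 and 9 genes, and leaving out HuMSC125 replicate 1 or HuMSC20 replicate 2 left 1.

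Immediate early genes were lower at the higher doses as a group. All 32 tested members of the list of immediate early and dissociation response genes were below 0, with a median log2 fold change of -1.09, and 23 passed the test, all lower. Over all genes tested, 46.9% were below 0 and 0.636% passed as lower. The list median was -1.07 in HuMSC50 and -1.06 in HuMSC125, each against HuMSC20. With edgeR 13 members passed at 50 and Fosl2 at 125, but at 125 the count was 24 with DESeq2, 21 with limma-voom and 18 without HuMSC125 replicate 2, which also gave 22 at 50. Nr4a1, for example, had log2 fold changes of -1.44 at 50 and -1.51 at 125 (edgeR adjusted p = 0.0495 and 0.066). Per library, the mean of the list was 6.55 to 7.19 log2 CPM at the higher doses and 7.65 to 8.04 in HuMSC20, with no overlap. Cells in all 9 libraries passed through the same enzymatic dissociation kit, and the part that this step plays in the levels of the list was not tested.

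Among the AP-1 members, Fosb had 81.5, 120.0 and 148 CPM as the lowest, median and highest higher-dose library, against 241, 321 and 424 CPM in HuMSC20 (log2 fold change -1.48 ± 0.20, edgeR adjusted p = 0.0107). Fos, the founding member, had 871, 1261 and 1341 CPM at the higher doses, against 1616, 2514 and 2032 CPM in HuMSC20, a smaller fall of -0.77 ± 0.15 (edgeR adjusted p = 0.0427). Neither gene had overlapping groups. Atf3, a stress-induced factor that pairs with Jun proteins, fell by 1.48 ± 0.21 on the log2 scale (113 ± 33.5 CPM, n = 6, against 315 ± 46.9 CPM, n = 3, SD).

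Of the nuclear receptors of the Nr4a family, which bind DNA without a known natural ligand, Nr4a1 and Nr4a3 passed and Nr4a2 did not (difference -1.44 ± 0.32, edgeR adjusted p = 0.0876). Nr4a1 had 173, 208 and 346 CPM as the lowest, median and highest higher-dose library, against 535, 702 and 745 CPM in HuMSC20 (log2 fold change -1.48 ± 0.21, edgeR adjusted p = 0.0109). Nr4a3, expressed far lower, had 1.08, 1.56 and 3.79 CPM at the higher doses, against 5.99, 5.62 and 7.82 CPM in HuMSC20 (-1.76 ± 0.28, edgeR adjusted p = 0.0192). The groups were again separate, and HuMSC125 replicate 2 was the highest of these 6 for Nr4a3 while HuMSC50 replicate 1 was for Nr4a1.

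The Krüppel-like factors of the list are zinc-finger transcription factors. Klf2 averaged 51.4 ± 12.0 CPM at the higher doses and 135 ± 43.0 CPM in HuMSC20 (n = 6 and 3, SD; log2 fold change -1.42 ± 0.17, edgeR adjusted p = 0.0052). Klf4 averaged 57.2 ± 9.48 CPM and 135 ± 31.8 CPM (-1.24 ± 0.16, edgeR adjusted p = 0.00842). Dusp2, a phosphatase that switches off MAP kinases, fell by 1.53 ± 0.22 and Egr2 by 1.17 ± 0.21 on the log2 scale. Of the 23 lower genes of the list, 4 still passed when HuMSC20 replicate 2 was left out and 4 when HuMSC20 replicate 3 was, 14 without HuMSC50 replicate 2, 12 without HuMSC50 replicate 3, and all 23 without HuMSC125 replicate 2.

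**Figure D3:**
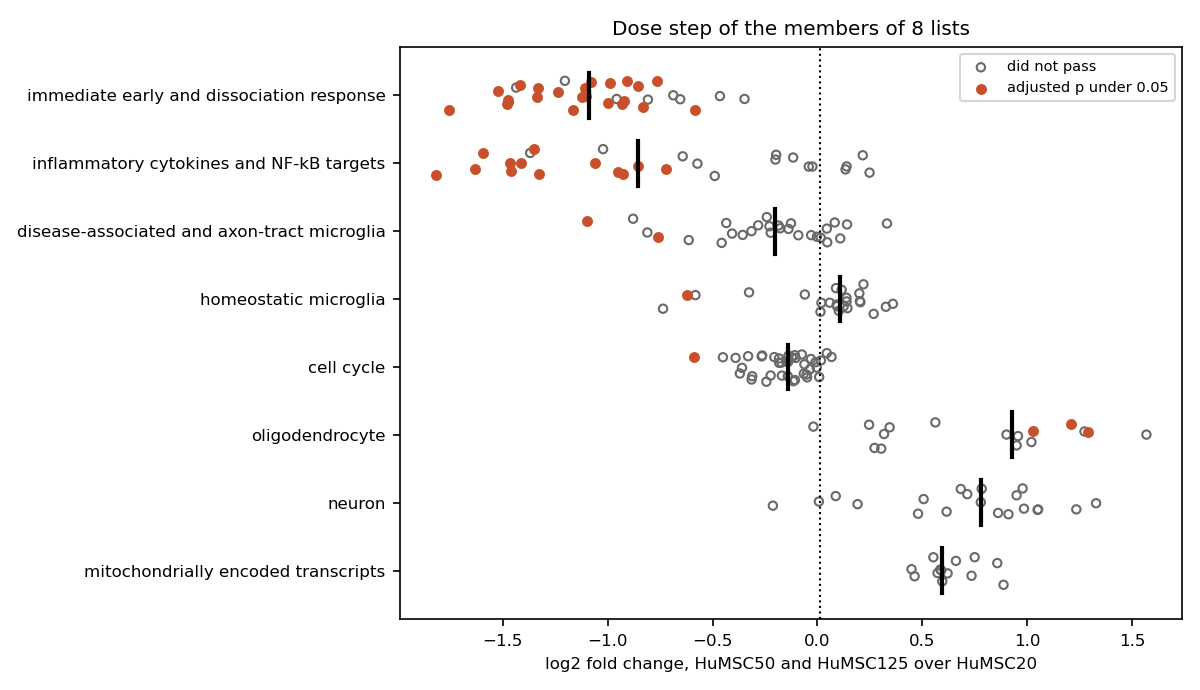
Log2 fold change of the dose step for every tested member of 8 lists (points; filled where the adjusted p is under 0.05), with the list median (bar) and the median of all genes tested (dotted line). All immediate early members lie left of 0, NF-κB members spread from -1.82 to above 0, and oligodendrocyte, neuron and mitochondrially encoded members lie mostly right of 0.

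Inflammatory cytokines and NF-κB targets were lower in part. Of 27 tested members, 13 passed the test, all lower, 23 were below 0 and the median log2 fold change was -0.86. The shares over all genes tested were 0.636% passing as lower and 46.9% below 0. Each against HuMSC20, the median was -0.95 in HuMSC50 and -0.76 in HuMSC125. With edgeR 6 members passed at 50 and 0 at 125; at 125 the count was 10 with DESeq2, 8 with limma-voom and 10 without HuMSC125 replicate 2, which also gave 13 at 50. Il1b had a log2 fold change of -1.82 at either dose (edgeR adjusted p = 0.0495 at 50 and 0.0696 at 125). When HuMSC20 replicate 2 was left out, and likewise HuMSC20 replicate 3, none of the 13 passed, with adjusted p from 0.0725 to 0.221 and from 0.0679 to 0.245 (edgeR), and 5 and 4 passed without HuMSC50 replicates 2 and 3.

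Il1b, the cytokine that was also the injected insult, had 43.7, 60.3 and 112 CPM as the lowest, median and highest higher-dose library, against 194, 272 and 288 CPM in HuMSC20. The 2 highest of the 6, HuMSC125 replicate 2 and HuMSC50 replicate 1, still lay below the lowest HuMSC20 library, and the log2 fold change was -1.82 ± 0.26 (edgeR adjusted p = 0.0109). Chemokines that draw monocytes and other leukocytes went the same way: Ccl3 averaged 339 ± 109 CPM at the higher doses and 851 ± 192 CPM in HuMSC20, and Ccl4 205 ± 84.4 CPM and 555 ± 84.1 CPM (n = 6 and 3, SD; edgeR adjusted p = 0.0254 and 0.0246). Ccl3 overlaps a gene with a provisional name on the other strand in the deposited coordinates. Ccl7 fell by 0.72 ± 0.11 and Ccl2 by 0.95 ± 0.17 on the log2 scale. For Ccl2 the groups overlapped, since HuMSC125 replicate 2 had 120.2 CPM and HuMSC20 replicate 1 had 106 CPM.

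Among the genes that fell were some that encode inhibitors of NF-κB or of cytokine signalling. Tnfaip3 had 91.1, 106 and 184 CPM as the lowest, median and highest higher-dose library, against 240.2, 422 and 440.0 CPM in HuMSC20 (log2 fold change -1.63 ± 0.22, edgeR adjusted p = 0.0107). Nfkbia had 171, 229 and 347 CPM at the higher doses, against 539.9, 824 and 766 CPM in HuMSC20 (-1.46 ± 0.21, edgeR adjusted p = 0.0109). Both groups of values were separate for each gene, and HuMSC50 replicate 1 was the highest of the 6 in each. The atypical IκB proteins Nfkbiz and Nfkbid, which act in the nucleus, fell by 1.60 ± 0.26 and 1.79 ± 0.31 on the log2 scale. Socs3, a brake on cytokine signalling through STAT3, averaged 16.7 ± 1.18 CPM at the higher doses and 31.0 ± 8.32 CPM in HuMSC20 (n = 6 and 3, SD; edgeR adjusted p = 0.0233).

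Some inflammatory genes lay near the threshold, and for Ptgs2 and Il1rn the side changed with the tool. Ptgs2, the inducible cyclooxygenase, had 5.15, 5.63 and 8.89 CPM as the lowest, median and highest higher-dose library, against 11.4, 11.1 and 16.4 CPM in HuMSC20, a difference of -1.02 ± 0.21 that missed the threshold with edgeR (adjusted p = 0.0572) and met it with DESeq2 (0.00155) and limma-voom (0.0413). Il1rn, the antagonist of the IL-1 receptor, had a difference of -1.07 ± 0.21 (adjusted p = 0.0504 with edgeR, 0.00116 with DESeq2 and 0.0122 with limma-voom). Icam1, an adhesion molecule for leukocytes, did pass (-0.86 ± 0.17, edgeR adjusted p = 0.0427), although HuMSC125 replicate 2 at 165 CPM lay above HuMSC20 replicate 1 at 163 CPM. It also passed with DESeq2 (adjusted p = 0.000127) and limma-voom (0.00856), but in only 2 of the 9 edgeR fits that left out a library.

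Other large falls came from genes outside those lists. Sdc4, a heparan sulfate proteoglycan of the cell surface, had 19.5, 24.4 and 47.3 CPM as the lowest, median and highest higher-dose library, against 89.0, 138 and 110.4 CPM in HuMSC20, a log2 fold change of -1.96 ± 0.24 (edgeR adjusted p = 0.0062). Ccrl2, an atypical receptor that presents the chemoattractant chemerin, averaged 23.3 ± 9.74 CPM at the higher doses and 89.2 ± 26.2 CPM in HuMSC20 (n = 6 and 3, SD; -1.93 ± 0.30, edgeR adjusted p = 0.0151). Lif, a cytokine of the IL-6 family, averaged 2.74 ± 1.02 CPM and 8.31 ± 0.402 CPM, and Gdf15, a stress-induced cytokine of the TGF-β superfamily, 12.2 ± 3.83 CPM and 34.3 ± 7.67 CPM (log2 fold changes -1.61 ± 0.27 and -1.50 ± 0.21). Tspan10, a tetraspanin, fell by 1.68 ± 0.25 and Rasgef1b, a guanine nucleotide exchange factor induced in macrophages by bacterial products, by 1.50 ± 0.29 on the log2 scale. Cdkn1a, the cell cycle inhibitor p21, averaged 31.0 ± 7.07 CPM and 71.1 ± 2.79 CPM (-1.20 ± 0.14, edgeR adjusted p = 0.0052). Adamts13, whose product cleaves von Willebrand factor, was nearly on or off: the 6 higher-dose libraries had 0 to 2 counts each, against 655, 84 and 23 counts in HuMSC20, which themselves differed widely. Adamts13 overlaps Cacfd1 on the same strand in the deposited coordinates, so its reads cannot be fully assigned.

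State markers of microglia moved less. Of 28 tested genes linked to disease-associated and axon-tract microglia, 21 were below 0 and the median was -0.20. Csf1 and Gpnmb passed, both lower. The shares over all genes tested were 46.9% below 0 and 0.636% passing as lower. Gpnmb, a transmembrane glycoprotein of lipid-laden macrophages, had 154, 186 and 240 CPM as the lowest, median and highest higher-dose library, against 344, 341 and 298 CPM in HuMSC20 (-0.76 ± 0.13, edgeR adjusted p = 0.0272), and passed in 2 of the 9 fits that left out a library (edgeR adjusted p = 0.146 without HuMSC20 replicate 2). Spp1, a secreted matrix protein that marks axon-tract microglia, varied from 24.4 to 168 CPM at the higher doses and from 171 to 229 CPM in HuMSC20, and its difference of -0.88 ± 0.42 did not pass (edgeR adjusted p = 0.577).

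Of 24 tested homeostatic genes 1 passed: Rhob, a small GTPase that is also an immediate early gene, averaged 727 ± 61.0 CPM at the higher doses and 1119 ± 164 CPM in HuMSC20 (n = 6 and 3, SD; -0.62 ± 0.11, edgeR adjusted p = 0.0246). The list median was 0.11, and 5 of the 24 were below 0, against 46.9% of all genes tested. The share of all genes passing as lower was 0.636%. Tmem119 differed by 0.12 ± 0.14, Cx3cr1 by 0.20 ± 0.15, Csf1r by 0.09 ± 0.12 and P2ry12 by -0.06 ± 0.11, none passing. Of 39 tested cell cycle genes 35 were below 0 with a median of -0.14, where 46.9% of all genes were below 0, and only Ube2c, which feeds ubiquitin to the anaphase-promoting complex, passed (-0.59 ± 0.11, edgeR adjusted p = 0.0314; it no longer did in 7 of the 9 fits that left out a library). Mki67, the proliferation marker, averaged 149 ± 20.0 CPM at the higher doses and 161 ± 17.1 CPM in HuMSC20 (edgeR adjusted p = 0.825).

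Of the 4 genes that rose, 3 encode myelin proteins made by oligodendrocytes. Mobp had 14.8, 21.7 and 33.1 CPM as the lowest, median and highest higher-dose library, against 8.66, 8.85 and 10.6 CPM in HuMSC20 (log2 fold change 1.29 ± 0.23, edgeR adjusted p = 0.0319). Mbp, the myelin basic protein gene, had 146, 249 and 304 CPM at the higher doses, against 101, 95.3 and 111 CPM in HuMSC20 (1.21 ± 0.24, edgeR adjusted p = 0.0498); Mbp overlaps a small gene with a provisional name on the same strand in the deposited coordinates. Mag, an adhesion protein of the inner myelin layer, averaged 28.6 ± 5.81 CPM at the higher doses and 14.0 ± 2.41 CPM in HuMSC20 (n = 6 and 3, SD; 1.03 ± 0.17, edgeR adjusted p = 0.0246). The other one, Ppm1j, a protein phosphatase gene, rose by 0.72 ± 0.14 with overlapping groups (edgeR adjusted p = 0.0435). In bulk RNA, more cells of a type in the library and more RNA per cell cannot be told apart. The cells were collected by CD11b/c, and how much oligodendrocyte material came along with them was not tested.

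Of 16 tested oligodendrocyte markers 13 had an unadjusted p under 0.05, all higher, where 8.94% of all genes had one in either direction, and the median log2 fold change was 0.93. The mean of the list was 4.25 to 4.78 log2 CPM at the higher doses and 3.72 to 3.98 in HuMSC20. Their part in the other results was not tested. Mobp, Mbp and Mag all missed the threshold when any 1 HuMSC20 library, HuMSC50 replicate 2 or HuMSC50 replicate 3 was left out, with edgeR adjusted p from 0.0563 to 0.227, and 1 of the 3 passed without HuMSC125 replicate 3.

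The neuron list had a median of 0.78 over 20 tested genes with none passing, and without HuMSC125 replicate 2, the library with the high level given above, that median was 0.13. Transcripts encoded in the mitochondrion were above 0 for all 13 tested, with a median of 0.60 and none passing. Of all genes tested, 46.9% were below 0. The mitochondrial transcripts took 2.87% to 7.63% of counts at the higher doses and 3.91% to 4.26% in HuMSC20. HuMSC50 replicate 1 had the lowest of these shares, and the other 5 higher-dose libraries, at 5.41% or more, lay above HuMSC20. The part of the mitochondrial share in the other results was not tested.

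**Figure D4:**
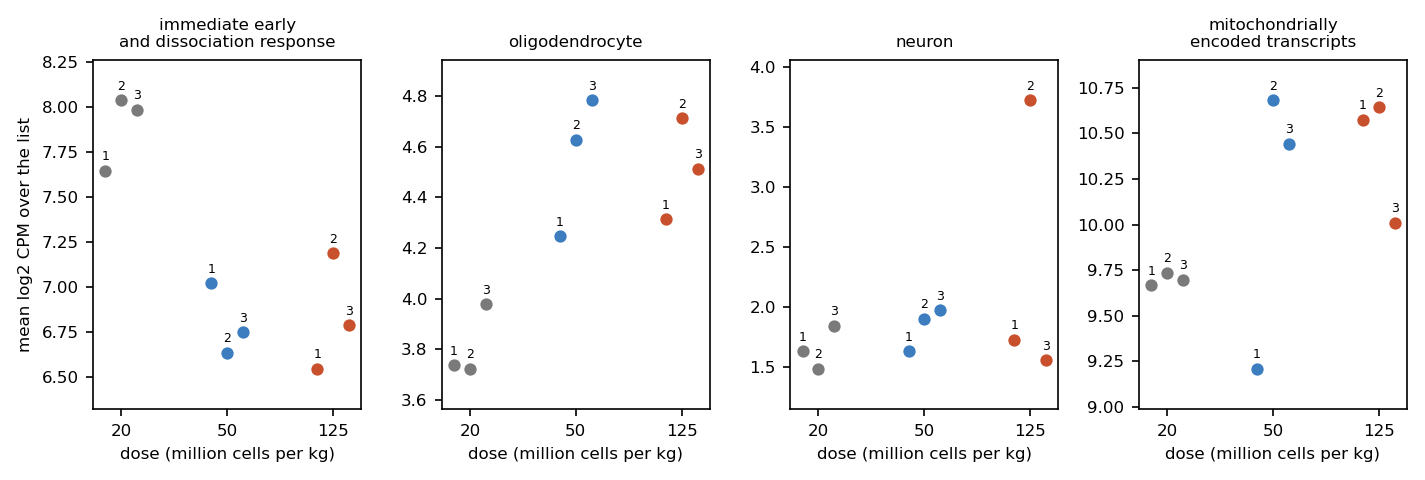
Mean log2 CPM of 4 lists in each library by dose, with replicate numbers beside the points. The immediate early list is lower and the oligodendrocyte list higher in all 6 higher-dose libraries than in HuMSC20, the neuron list stands out only in HuMSC125 replicate 2, and the mitochondrial list is lowest in HuMSC50 replicate 1.

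The lower genes were also described by their level, which enters the filter and the test, and by span and promoter, which do not. Their median level was 6.31 log2 CPM, against 4.54 for all genes tested. Their median span in the deposited coordinates was 5.02 kb, against 21.2 kb for all genes tested, and 49.4% of them spanned under 5 kb, against 16.6%. Of the 87, 67 had a promoter in the RefSeq table. A κB site was found in 13.4% of these promoters and in 4.32% of those of all genes tested with an entry, and among the lower members of the NF-κB list, which was drawn up from known targets of that factor, in 6 of 10, the Tnfaip3 and Nfkbia sequences above included. A CArG box was found in 3 of 14 promoters of lower immediate early genes (Egr2 above is one) and in 1.12% of all promoters. AP-1 matches were in 8.96% against 4.34% of all promoters (0 of 14 for the lower immediate early genes), E-boxes in 10.4% against 7.89%, and the PU.1 core GAGGAA in 25.4% against 23.0%. These are counts of letters in a short window, and the κB and CArG searches were added after the gene lists had been seen.

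The same step between doses was measured in 3 other experiments with 3 libraries per dose, each with its own sequencing run: intravenous delivery with collection at P12, and intranasal delivery with collection at P7 and at P22. Differences between experiments therefore carry route, age and run together, and these cannot be told apart. At P7, the median of the 87 genes was 0.10 and only 30 were below 0. At P22 the median was -0.44 with 78 below 0, and after intravenous delivery at P12 it was -0.24 with 81 below 0. Over all genes the medians in these 3 experiments were 0.01, -0.02 and -0.01, and 46.7%, 56.7% and 51.7% of genes were below 0.

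Tested directly, the step at P12 intranasal differed from that at P7 for 54 genes (0.381% of 14179), of which 53 (0.374%) were lower at P12, and 45 of the 87 genes were among them, although those were chosen on the P12 libraries that enter this difference. For Ccrl2 the step was -1.93 ± 0.26 at P12 and 0.31 ± 0.26 at P7, a difference of -2.24 ± 0.38 (edgeR adjusted p = 0.0191). For Il1b the steps were -1.82 ± 0.26 and 0.23 ± 0.27 (difference -2.05 ± 0.39, edgeR adjusted p = 0.0277). Without HuMSC20 replicate 2 or 3 of the P12 intranasal experiment 2 genes passed, and without HuMSC50 replicates 2 or 3 there were 27 and 26; without HuMSC125 replicate 2 there were 73. DESeq2 gave 137 genes and limma-voom 85.

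Against intravenous delivery at P12, 4 genes differed with edgeR (0.0283% of 14114), among them Fosl2 and Pdk4; DESeq2 gave 49, limma-voom 62 and edgeR without the filter 37. Fosl2 stood at 4.77 to 7.36 CPM in the higher-dose and 6.39 to 7.59 CPM in the HuMSC20 intravenous libraries, so its step there was -0.19 ± 0.13, and the difference was -1.15 ± 0.18 (edgeR adjusted p = 0.04). For Pdk4 the intravenous step was -0.09 ± 0.19 and the difference -1.63 ± 0.27 (edgeR adjusted p = 0.048). This count ran from 0 to 43 when 1 library of the P12 intranasal experiment was left out: 0 without HuMSC20 replicates 2 or 3, HuMSC50 replicate 3 or HuMSC125 replicates 1 or 3, 28 without HuMSC20 replicate 1, 25 without HuMSC50 replicate 1 and 43 without HuMSC125 replicate 2. Against P22, no gene passed with edgeR (1231, or 8.72%, at unadjusted p under 0.05), while DESeq2 gave 15 and limma-voom 11. A p that misses the threshold does not show that the steps at P12 and P22 were alike.

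**Figure D5:**
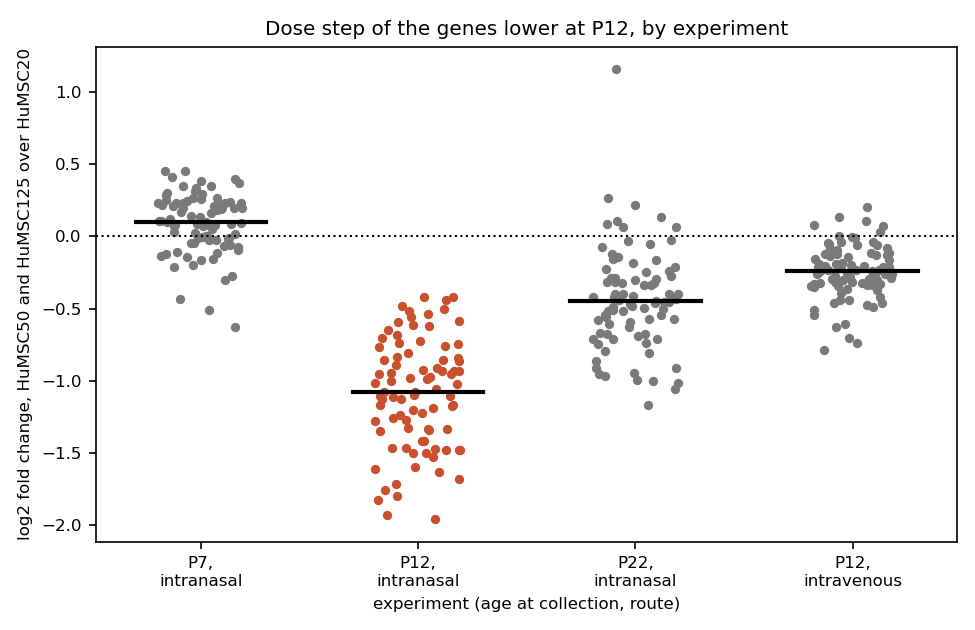
Log2 fold change of the higher doses over HuMSC20 in 4 experiments for 86 of the 87 genes that were lower at P12 after intranasal delivery (points; Adamts13 is left out for scale), with their median (bar). These genes were chosen on the P12 intranasal values; at P7 they scatter around 0, and at P22 and after intravenous delivery most lie below 0.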

How the data were processed

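Gene-level read counts were deposited by the authors as 1 table of whole numbers for 32623 genes and 90 libraries, with Ensembl identifiers, symbols and coordinates, per the file headers. The submitters' processing notes name DESeq2 1.8.1, HTSeq 0.5.3, STAR 2.7.2d and SAMtools; genome build and annotation are not given in the sources used here. Per the labels' protocols, 100 ng of total RNA gave stranded polyadenylated libraries read to 75 bp from 1 end. Every library column matched 1 sample by its label.

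From the deposited counts, genes were kept by edgeR's filterByExpr (minimum count 10, minimum total count 15), scaled by TMM and fitted with a mean per dose over the 9 libraries (edgeR 4.0.16, R 4.3.3, quasi-likelihood test, Benjamini-Hochberg threshold 0.05). The dose step is the mean of HuMSC50 and HuMSC125 minus HuMSC20. Steps of 2 experiments were compared in 1 fit of 18 libraries. CPM is TMM-scaled, and log2 CPM carries a prior count of 2. SE is the log2 fold change over the root of its F value. Alternatives were DESeq2 1.42.0, limma-voom 3.58.1 with quality weights, DESeq2 size factors, no filter, a replicate block, all 15 libraries of the run and leaving out each library. The edgeR test of the P12 intranasal dose step was run on simulated counts with known changes. The pairs of doses, the differences between experiments and the alternatives were not simulated. No pair of libraries of the same dose agreed within sampling noise, and pairs across doses were not checked. Deviations of same-numbered HuMSC125 and HuMSC50 libraries correlated at 0.103 to 0.152, those involving HuMSC20 at -0.151 to 0.148, so only the first pair of groups met the 0.1 set for pairing.

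The groups and the 38 gene and marker lists were chosen with earlier results of these data known; 749 of 780 list entries matched a symbol or RefSeq synonym. Named in the text are the 15 largest rises and falls of the step (6 for pairs of doses) among genes passing with separate groups and a mean log2 CPM of at least 1, the 4 smallest p per list, fixed microglial genes, and up to 5 genes each way between experiments. Gadd45g, Hlx, Pim1, Irf2bp2, Egr2, Nr4a1, Ccl2, Ccl3, Ccl4, Icam1 and Ppm1j fall outside that rule and were chosen after their values were seen. Motifs were counted in 250 bases before the RefSeq start.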

Additional observations from a re-analysis of the deposited data

Results flagged for a closer look

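The naming rule for differences between experiments picks only among genes that passed a test of the difference itself, and it gave 10 genes. Other genes named above, such as Nfkbia and Nr4a1, also passed against P7. Against intranasal delivery at P7, the difference (P12 minus P7, log2) was -2.24 for Ccrl2, -2.05 for Il1b, -2.01 for Nfkbiz, -1.98 for Tnfaip3 and -1.97 for Nr4a2, an orphan nuclear receptor of the immediate early list. Nr4a2 did not pass in the P12 intranasal step alone (-1.44 ± 0.32, edgeR adjusted p = 0.0876). At P7, Il1b had 466 to 911 CPM at the higher doses and 511 to 576 CPM in HuMSC20.

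Cabp7, a neuronal calcium-binding protein gene, was the one gene of the 54 whose step was higher at P12, with a difference of 1.45 (0.90 at P12 and -0.54 at P7) at 1.05 to 1.68 CPM in the higher-dose and 1.78 to 2.56 CPM in the HuMSC20 libraries of P7.

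Against intravenous delivery at P12 the difference was -1.15 for Fosl2 and -1.63 for Pdk4. The other two that passed, AABR07053166.1 and RGD1359290, carry provisional names and differed by -7.80 and -5.89, while their P12 intranasal steps were near 0 (-0.10 ± 0.48 and -0.02 ± 0.47). AABR07053166.1 had 0.768 to 29.2 CPM in the higher-dose and 0.048 to 0.105 CPM in the HuMSC20 intravenous libraries. RGD1359290 had 0.945 to 25.2 CPM and 0.202 to 0.240 CPM in the same libraries. In both, HuMSC125 replicate 3 was the low library of the intravenous higher doses.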

How the results depend on the processing

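All 91 genes of the dose step kept their direction in every fit that left out 1 library, and 12 passed in all 9 of them, 43 in 4 or fewer. Direction was all but fixed beforehand, since the groups did not overlap for 88 of the 91. DESeq2 called all 91 of them, limma-voom 89, the fit of all 15 libraries of the run 69. The counts moved with the setting. Leaving out 1 library gave 17 to 145 genes for the step, 0 to 75 for HuMSC50 against HuMSC20, 1 to 69 for HuMSC125 against HuMSC20, 0 to 43 for the difference from the intravenous experiment and 2 to 73 for that from P7. Without the filter the counts in that order were 148, 100, 99, 37 and 86, with DESeq2 189, 149, 145, 49 and 137. DESeq2 also gave 3 for HuMSC125 against HuMSC50 and 15 for the difference from P22, where limma-voom gave 11. Limma-voom gave 85, 63, 62 and 85 for HuMSC50 against HuMSC20, HuMSC125 against HuMSC20 and the differences from the intravenous and P7 experiments. The fit of all 15 libraries gave 7 for HuMSC125 against HuMSC20. The cause of these changes was not tested. With the replicate block the step had 89 genes, 74 of them among the 91, and HuMSC125 against HuMSC20 had 22; the other counts stayed within 1.5 times. Same-numbered libraries did not deviate together over the 3 doses (correlations -0.151 to 0.152; 1 of 9 libraries correlated best with its own number in both other groups). Between HuMSC125 and HuMSC50 all 3 correlations were over 0.1 (0.103, 0.152 and 0.104), and there the fit with the replicate block also gave 0 genes. Of genes that did not pass, P2ry12 ran from -0.151 to 0.0489 over these fits (above 0 only with HuMSC20 replicate 2 left out), and Csf1r from -0.013 to 0.176 (below 0 only with HuMSC20 replicate 1 left out).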

Other observations

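Adamts13 counts fell into high and near-zero libraries across the whole series. At least 20 counts were found in 18 of 90 libraries, with a maximum of 1401. None of the 15 libraries of either P7 experiment had more than 2 counts, whereas 3 of 15 did reach 20 in each P12 experiment, 2 of 15 at P22 after intranasal and 10 of 15 at P22 after intravenous delivery. The 20-count line was drawn after the values were seen.

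Lists with little movement in the dose step were those of ribosomal proteins (34 tested, none passing, median -0.09), oxidative phosphorylation (26 tested, none passing, median -0.08), cholesterol synthesis (24 tested, none passing, median 0.00) and complement and phagocytosis (23 tested, none passing, median -0.02). Of 23 glycolysis and hypoxia genes, Adm, which encodes the vasodilator adrenomedullin, passed alone, at 3.85 ± 1.27 CPM at the higher doses and 9.24 ± 2.26 CPM in HuMSC20 (n = 6 and 3, SD; edgeR adjusted p = 0.0361). The share passing as lower over all genes tested was 0.636%. Mast cell markers were below 0 for all 10 tested, against 46.9% of all genes, with a median of -0.73 and none passing. The list mean was 2.01 to 3.64 log2 CPM at the higher doses and 2.45 to 4.72 in HuMSC20. HuMSC20 replicate 1 held the highest value, and the groups overlapped. Endothelial markers were below 0 for all 11 tested, with a median of -0.21 and none passing. Their list mean was 7.09 to 7.25 log2 CPM at the higher doses and 7.10 to 7.51 in HuMSC20. Fibroblast markers were below 0 for 9 of 10 tested and neutrophil markers for 10 of 12, but ependymal and choroid plexus markers for 1 of 10. The part of these cells in the fall of Apold1 or other genes was not tested.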
